A study of Mus musculus with 4 samples.

Results

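The genes described here encode the enzymes that hydroxylate and cross-link collagen, together with the chaperone that accompanies it, in PαS cells given IL-17A, BMP-2 or both. They are the 10 genes named *Lox*, *Loxl1*, *Loxl2*, *Loxl3*, *Plod1*, *Plod2*, *Plod3*, *P4ha1*, *P4ha2* and *Serpinh1*, chosen by name among the 46517 genes listed. Each library gave a value for every one of them. The rule uses names and no measured value, but the genes were chosen with earlier results of these data known.

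Collagen is modified in several steps before it can bear load. In the endoplasmic reticulum, prolyl 4-hydroxylase (a tetramer whose catalytic α chains come from genes such as *P4ha1* and *P4ha2*) hydroxylates proline, which keeps the triple helix stable at body temperature, and the lysyl hydroxylases (*Plod1*, *Plod2* and *Plod3*) hydroxylate lysine. The chaperone HSP47 (*Serpinh1*) binds the folded procollagen helix, and outside the cell the lysyl oxidases (*Lox* and its relatives) oxidise lysine and hydroxylysine, from which the covalent cross-links of fibrils form. In bone, mineral is laid down on a collagen matrix cross-linked in this way.

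PαS cells are mesenchymal cells that carry PDGFRα and Sca-1. Here they were sorted as CD45-CD11b-Ter119-CD31-CD34-PDGFRα+Sca1+ cells from tissue in and around the injured femur of wild-type C57BL/6J mice, and all 4 libraries come from cells kept for 7 days in osteogenic medium. There were 4 conditions with 1 library each: cells left untreated, cells given 10 ng per ml of IL-17A, cells given 500 ng per ml of BMP-2, and cells given the pair at these doses. In comparisons the untreated library is called "none" and the last one "both". The question put by this layout is how IL-17A changes the cells with and without BMP-2. Mice for work on bone regeneration were females aged 6 to 8 weeks. The number of animals behind a library was not given in the sources used here.

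Exon reads numbered 4190612 to 4719412 per library, and spliced reads made up 53.1 to 53.9% of them. The levels below are RPKM, in which a gene's exon reads are corrected for its exon length and for the library's size, so that genes of different length can be compared. Ratios between libraries are ratios of exon reads scaled by TMM (a normalisation that makes the bulk of genes equal), with an exact 95% interval. These intervals cover counting error only. Copies made by PCR were not told apart by molecular identifiers, and no difference has a replicate check, as each condition has 1 library. "Beyond counting error" means that the interval excludes 1.

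Of the genes behind the sort, *Ly6a* (encoding Sca-1) was at 1411 to 1796 RPKM, *Pecam1* (CD31) at 0 reads in every library and *Ptprc* (CD45) at 0 to 4 reads. *Itgam* (CD11b), also gated out, had 2 exon reads in untreated cells, 0 under IL-17A, 29 under BMP-2 and 0 under both. *Cd34*, which the gate should exclude, had 94 exon reads in untreated cells, 44 under IL-17A, 12 under BMP-2 and 0 under both. *Pdgfra* had 14.8, 15.5, 7.38 and 13.6 RPKM in the same order. The summed RPKM of 10 macrophage markers was 324 under BMP-2 against 82.4 to 117 in the other libraries, and *Lyz2* alone gave 269 of the 324. Of the 9 that were measured, BMP-2 alone had 6 above and 2 below the untreated library by more than counting error. Of all genes that averaged at least 10 exon reads, 29.9% were above and 30.9% below in this sense. The lower markers were *Adgre1*, at 24, 17, 0 and 0 reads, and *Csf1r*, at 130, 108, 61 and 183. Of 6 endothelial markers *Pecam1*, *Cdh5* and *Tie1* had 0 reads throughout, while *Kdr* had 117, 0, 70 and 0, *Tek* 0, 51, 63 and 23, and *Emcn* 3, 0, 0 and 23. Of 5 muscle markers *Myod1* and *Myf5* had 0 reads, *Pax7* at most 1 and *Myog* at most 4, and *Des* had 139, 78, 112 and 46. Of the osteoblast genes, *Alpl* was at 10.4, 47.7, 17.8 and 70.0 RPKM, *Sp7* at 3.80, 4.14, 14.2 and 16.2, and *Runx2* at 1.49 to 2.34, while *Ibsp* had 0 reads, *Bglap* at most 3 and *Bglap2* 0, 5, 26 and 0. Whether these marker levels reflect other cell types, or bear on the enzyme genes, was not tested. In such bulk libraries fewer cells of a type and less RNA per cell cannot be told apart.

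*Serpinh1* and *Lox* were far more abundant than the other enzyme genes. *Serpinh1* ranked between 14 and 29 among all genes by RPKM and *Lox* between 34 and 75. *Loxl3* came next in every library, followed by *Plod3* or *Loxl2*, and *Plod2* was the lowest of the 10 in every library.

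**Figure D1:**
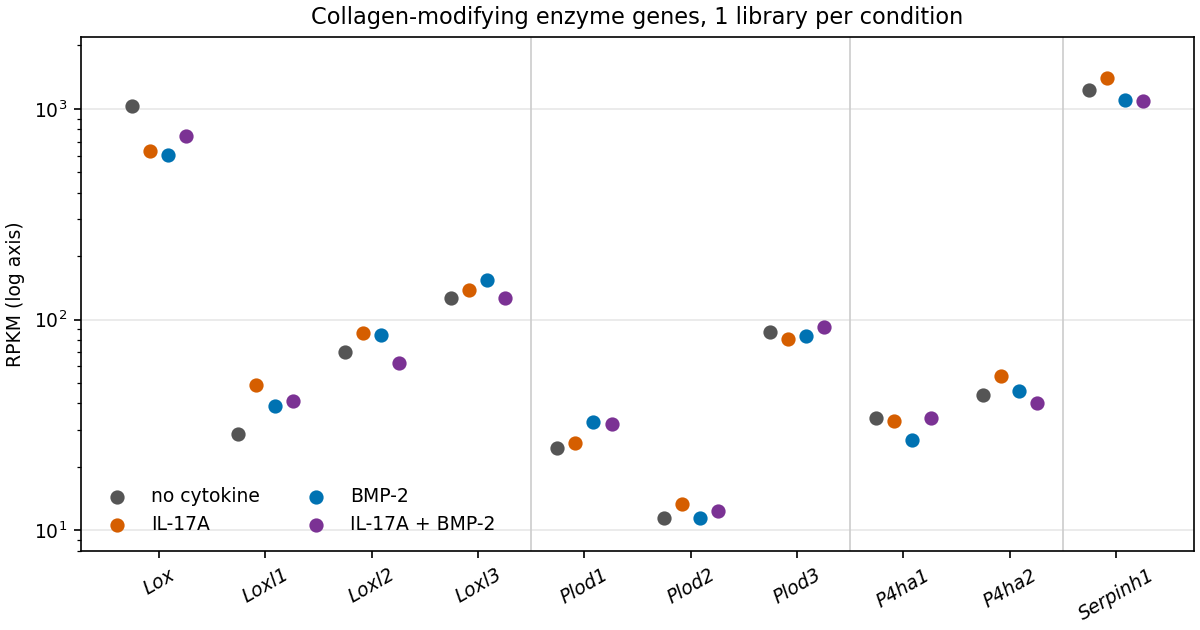
RPKM (log axis) of the 10 genes in the 4 libraries, 1 point per library, with vertical lines between lysyl oxidases, lysyl hydroxylases, prolyl 4-hydroxylase α chains and the chaperone gene. *Serpinh1* lies between 1094 and 1403 RPKM and *Plod2* between 11.4 and 13.4, and *Lox* is highest in untreated cells, at 1030.

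Of the lysyl oxidases, *Lox* (ENSMUSG00000024529, chromosome 18, 52516069 to 52529867, minus strand, mm10) gives the founding enzyme of the family and made up most of the family's RNA. It had 1030 RPKM in untreated cells, 631 under IL-17A, 602 under BMP-2 and 743 under both, from 24688, 13630, 14691 and 18161 exon reads. All 3 treated libraries were thus below the untreated one, and the library with both cytokines lay above either cytokine alone. The ratio was 0.602 (95% interval 0.589 to 0.614) for IL-17A over none, 0.584 (0.572 to 0.596) for BMP-2 over none, while both over none had 0.703 (0.690 to 0.717). Adding IL-17A to BMP-2 went with a ratio of 1.20 (1.18 to 1.23), and adding BMP-2 to IL-17A with one of 1.17 (1.14 to 1.19).

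The reads of *Lox* differed in kind as well as in number. Spliced reads, those that cross from one exon to another, numbered 6365 in untreated cells, 2529 under IL-17A, 3472 under BMP-2 and 8394 under both. They were 25.8% of its exon reads in untreated cells (exact binomial 95% interval 25.2 to 26.3), 18.6% under IL-17A (17.9 to 19.2), 23.6% under BMP-2 (23.0 to 24.3) and 46.2% under both (45.5 to 47.0). The library with both cytokines therefore stood apart from the other 3. A spread this wide, 27.7 percentage points, was met or passed by 0.633% of the 4423 genes that averaged at least 200 exon reads, called the deeper genes here, whose median spread was 6.12 points.

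The direction of *Lox* depended on which of these classes was counted. In spliced reads the ratio of both cytokines over none was 1.27 (1.23 to 1.32), above 1, while in exon reads that are not spliced it was 0.502 (0.490 to 0.514). In spliced reads the ratio to BMP-2 alone was 2.40 (2.31 to 2.50) and that to IL-17A alone 2.98 (2.85 to 3.12), whereas in reads that are not spliced these were 0.827 (0.805 to 0.850) and 0.751 (0.730 to 0.771). Only the lower level with either cytokine alone held in both classes, with ratios in spliced reads of 0.428 (0.408 to 0.448) for IL-17A and 0.531 (0.509 to 0.553) for BMP-2, and in the other reads of 0.669 (0.653 to 0.685) and 0.607 (0.592 to 0.621). The main transcript of *Lox* in the GENCODE M21 annotation has 7 exons and 4741 bases, of which 3167 are the last exon, so that most of its length can give no spliced read. Which transcripts or which part of them the reads came from was not tested.

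*Loxl1* (ENSMUSG00000032334, chromosome 9, 58287723 to 58313212), whose product acts in elastic fibres, went the other way. Its RPKM was 28.5 in untreated cells, 48.9 under IL-17A, 38.8 under BMP-2 and 41.1 under both, from 475, 733, 657 and 698 reads. All treated libraries were above the untreated one. The ratio was 1.68 (1.5 to 1.89) for IL-17A, 1.36 (1.20 to 1.53) for BMP-2 and 1.40 (1.25 to 1.58) for both over none. On addition of IL-17A to BMP-2 no difference was detectable, at 1.03 (0.929 to 1.15), and when BMP-2 was added to IL-17A the ratio was 0.835 (0.752 to 0.928).

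*Loxl3* (ENSMUSG00000000693, chromosome 6, 83034173 to 83052562), a further oxidase gene, had 127 RPKM in untreated cells, 138 under IL-17A, 155 under BMP-2 and 127 under both. It was highest with BMP-2, with a ratio to none of 1.21 (1.16 to 1.27), and 0.802 (0.764 to 0.842) of that level when IL-17A was added. IL-17A alone gave 1.07 (1.01 to 1.13). Its 3′ part overlaps *Htra2* on the other strand, but at least 95.8% of its exon reads in a library were unique to it.

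*Loxl2* (ENSMUSG00000034205, chromosome 14, 69609068 to 69695834, plus strand), whose product cross-links collagen IV among other substrates, was higher with either cytokine alone and lowest with both. It had 70.3 RPKM in untreated cells, 85.9 under IL-17A, 84.4 under BMP-2 and 61.9 under both, from 1893, 2086, 2312 and 1702 reads. Either cytokine alone gave a ratio of 1.20 (1.13 to 1.28 for IL-17A, 1.13 to 1.27 for BMP-2), and both over none one of 0.859 (0.804 to 0.918). The antisense gene *Gm27177* (69582164 to 69683286, minus strand) spans 41.5% of the 5405 exonic bases of *Loxl2*, introns of *Gm27177* included, and 301 of these bases are also exon of *Gm27177*. Without strand, reads of the 2 genes that are not spliced cannot be told apart where they overlap. How the program assigned reads shared by the 2 genes was not given in the sources used.

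Reads unique to *Loxl2* were the smaller part, 766 in untreated cells, 1029 under IL-17A, 1020 under BMP-2 and 613 under both, against 1127, 1057, 1292 and 1089 that were not unique. The libraries differed more in the unique reads. Their ratio was 1.46 (1.33 to 1.61) for IL-17A over none and 0.524 (0.474 to 0.580) for both over IL-17A, while that of the reads that are not unique was 1.02 (0.939 to 1.11) and 0.904 (0.829 to 0.984). Unique reads that were also spliced numbered 391, 628, 612 and 122, which made both over none 0.301 (0.244 to 0.370) and both over BMP-2 0.198 (0.162 to 0.241). Unique reads that were not spliced were instead most numerous with both cytokines, at 491 against 375, 401 and 408. Spliced reads that were not unique, the larger part of the spliced reads, numbered 738, 739, 850 and 712. All spliced reads of *Loxl2* together numbered 1129, 1367, 1462 and 834. *Gm27177* itself was listed with 100, 17, 77 and 57 exon reads, with 0 of them unique to it.

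**Figure D2:**
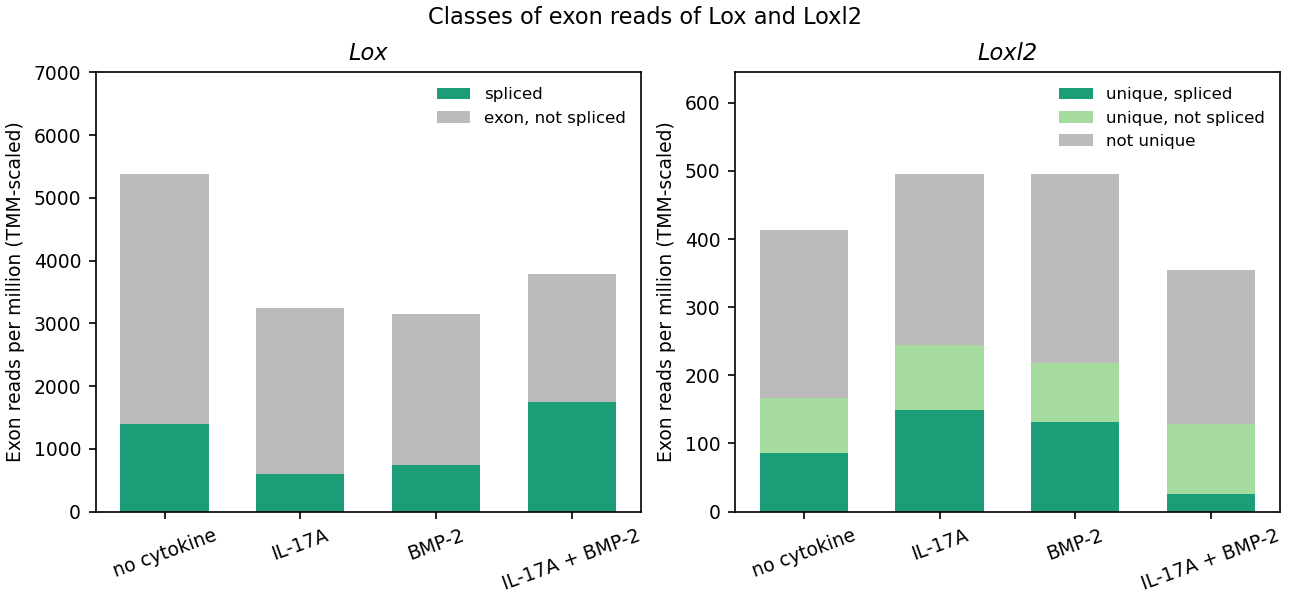
TMM-scaled exon reads (CPM) of *Lox* (left) and *Loxl2* (right) in the 4 libraries, stacked by class of read. For *Lox* the library with both cytokines has the most spliced reads, 8394 against 2529 to 6365, and for *Loxl2* it has the fewest unique spliced reads, 122 against 391 to 628.

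As a family the 4 lysyl oxidases summed to 1256 RPKM in untreated cells, 904 under IL-17A, 880 under BMP-2 and 973 under both. *Lox* gave 82.0% of this sum in untreated cells, 69.8% under IL-17A, 68.4% under BMP-2 and 76.3% under both. The share of *Loxl3* was 10.1% in untreated cells and 17.6% under BMP-2, its highest. *Loxl4*, the remaining gene of the family and no member of the 10, was at 2.90, 6.29, 7.49 and 7.28 RPKM, above the untreated library in all 3 treated ones (both over none 2.44, 1.81 to 3.34).

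Among the lysyl hydroxylases no ratio passed 1.33. *Plod3* (ENSMUSG00000004846, chromosome 5, 136987019 to 136996648), whose product also has glycosyltransferase activity on hydroxylysine, was at 87.1 RPKM in untreated cells, 80.6 under IL-17A, 84.1 under BMP-2 and 92.5 under both. It was lower with IL-17A than in untreated cells, at 0.908 (0.849 to 0.970), and higher on addition of IL-17A to BMP-2, at 1.07 (1.01 to 1.14). Its 5′ part overlaps *Znhit1* on the other strand, which had 192, 191, 210 and 149 exon reads. At least 98.5% of the exon reads of *Plod3* in a library were unique to it. *Plod1* (ENSMUSG00000019055, chromosome 4, 147909753 to 147936767), which encodes the enzyme of helical lysines, was at 24.6, 26.1, 32.8 and 31.9 RPKM. Both libraries with BMP-2 were above both without it, with ratios of 1.33 (1.21 to 1.46) without and 1.21 (1.11 to 1.33) with IL-17A. With BMP-2 in both states, 1 of the 10 genes, *Plod1*, was higher beyond counting error, which is close to the 9.76% of all genes tested. Against untreated cells, 6 of the 9 measured macrophage markers were higher and 2 lower under BMP-2 alone, where 29.9% and 30.9% of all genes tested were. Under both, 1 was higher and 6 lower, against 32.0% and 33.2%. For both over IL-17A, the comparison behind the second ratio of *Plod1*, 3 were higher and 3 lower, against 30.3% and 32.2%. Their part in the ratios of *Plod1* was not tested.

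*Plod2* (ENSMUSG00000032374, chromosome 9, 92542223 to 92608428) encodes the hydroxylase of the telopeptides, which sets the kind of cross-link formed. It had 11.5 RPKM in untreated cells, 13.4 under IL-17A, 11.4 under BMP-2 and 12.4 under both, from 239, 251, 242 and 263 reads. No comparison of it differed beyond counting error, and intervals such as 0.828 to 1.19 for BMP-2 and 0.955 to 1.37 for IL-17A over none show what size of difference could not be detected at this depth. The 3 hydroxylases summed to 123 RPKM in untreated cells, 120 under IL-17A, 128 under BMP-2 and 137 under both, and *Plod3* gave 65.5 to 70.7% of this.

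The α chain genes of prolyl 4-hydroxylase differed from each other in direction. *P4ha1* (ENSMUSG00000019916, chromosome 10, 59323296 to 59373304) had 34.2 RPKM in untreated cells, 33.0 under IL-17A, 26.9 under BMP-2 and 33.9 under both. The library with BMP-2 alone was the low one, at 0.784 (0.701 to 0.878) of the untreated level, and the other 3 lay close together. *P4ha2* (ENSMUSG00000018906, chromosome 11, 54100095 to 54131665) had 43.7, 54.3, 45.6 and 40.4 RPKM, with the library with IL-17A alone as the high one, at a ratio of 1.22 (1.13 to 1.31). On addition of IL-17A to BMP-2, *P4ha1* was higher, at 1.23 (1.10 to 1.38), and *P4ha2* lower, at 0.865 (0.802 to 0.933). *P4ha2* gave 56.1% of the summed RPKM of the pair in untreated cells, 62.2% under IL-17A, 62.9% under BMP-2 and 54.4% under both.

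Both genes showed a difference between classes of read as well. In spliced reads *P4ha1* was lower with IL-17A alone, at 0.836 (0.730 to 0.957), where in all exon reads no difference was detectable, at 0.947 (0.848 to 1.06). For *P4ha2* the IL-17A ratio over none was 1.09 (0.999 to 1.19) in spliced reads and 1.55 (1.35 to 1.78) in exon reads that are not spliced. Added to BMP-2, IL-17A gave *P4ha1* a ratio of 1.37 (1.20 to 1.57) and *P4ha2* one of 0.967 (0.883 to 1.06) in spliced reads.

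The stretches before the RefSeq starts of these 2 genes are shown because the pair had different ratios while both are known targets of the hypoxia-inducible factors (HIF), which bind a short core of letters. The 250 bases before that start (build GRCm38.p6, plus strand) run from 59323046 to 59323295 on chromosome 10 for *P4ha1* and from 54100674 to 54100923 on chromosome 11 for *P4ha2*, and no GENCODE M21 exon of either gene falls in its window. For *P4ha1* the window ends where the gene of the deposited files begins. For *P4ha2* it opens 579 bases inside the deposited gene, so that it precedes the RefSeq start and not the whole gene whose reads are given. Capitals mark ACGTG or GCGTG on either strand, so that CACGT and CACGC are matches on the minus strand.
P4ha1: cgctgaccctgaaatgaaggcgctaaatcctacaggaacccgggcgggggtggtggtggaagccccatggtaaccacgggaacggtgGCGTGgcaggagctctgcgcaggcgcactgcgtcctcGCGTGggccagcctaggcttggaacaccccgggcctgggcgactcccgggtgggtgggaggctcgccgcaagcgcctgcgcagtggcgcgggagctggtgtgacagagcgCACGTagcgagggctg
P4ha2: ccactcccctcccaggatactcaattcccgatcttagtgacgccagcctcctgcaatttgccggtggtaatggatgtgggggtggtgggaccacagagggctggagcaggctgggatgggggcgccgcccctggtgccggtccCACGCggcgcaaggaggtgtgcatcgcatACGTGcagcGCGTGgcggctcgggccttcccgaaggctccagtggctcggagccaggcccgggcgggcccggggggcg
Each window held 3 matches. Of 32851 such windows in the RefSeq table, 38.6% held at least 1 match and 6.58% held 3 or more. Of the 10 genes, 5 have a promoter in that table. *Plod3* had 4 matches in its 250 bases, and *Plod1* and *Serpinh1* had 1 each. A match is a run of letters and not a site shown to be bound.

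*Serpinh1* (ENSMUSG00000070436, chromosome 7, 99345375 to 99353230) had 1225 RPKM in untreated cells, 1403 under IL-17A, 1097 under BMP-2 and 1094 under both, from 14872, 15342, 13542 and 13539 reads. The libraries with BMP-2 were nearly equal and below the other pair. The ratio was 1.12 (1.10 to 1.15) for IL-17A over none and 0.894 (0.873 to 0.915) for BMP-2 over none. Among cells with IL-17A the ratio for BMP-2 was 0.774 (0.756 to 0.792). Of the 10 genes 1, *Serpinh1*, was lower with BMP-2 in both states, which is close to the 11.2% of all genes tested. Its spliced share was steady, at 21.8 to 22.1%, a spread of 0.293 points that was met or passed by 98.9% of the 4423 deeper genes.

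None of the 10 genes was 2-fold apart in any comparison of exon reads. All 10 averaged at least 10 exon reads, the filter for testing that 11352 genes passed, and also at least 200. A call required a ratio of 2 or more, or of its inverse or less, with an interval that excluded 1. By that rule 0 of 10 were called for IL-17A over none, where 20.8% of all genes tested and 4.16% of the deeper genes were. For BMP-2 over none it was 0 of 10, against 22.4% and 3.66%. For both over none it was 0 of 10, against 26.3% and 8.27%. Adding IL-17A to BMP-2 called 0 of 10, against 27.0% and 8.07%, and adding BMP-2 to IL-17A called 0 of 10, against 23.6% and 6.06%. In spliced reads 1 of the 10, *Lox*, was called for IL-17A over none, against 17.4% of all genes. It was likewise called for both over BMP-2 (24.6%) and for both over IL-17A (21.4%). Shares among the deeper genes, to which all 10 belong, were not computed for spliced reads.

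At 1.5-fold *Loxl1* was higher and *Lox* lower with IL-17A than with none, which makes 2 of 10 against 36.3% of all genes and 18.5% of the deeper genes, and *Lox* was lower with BMP-2, 1 of 10 against 37.1% and 16.6%. Small differences in deeply read genes such as these can still pass counting error. With IL-17A over none 5 of 10 were higher and 2 lower in this sense, where 29.8% and 29.3% of all genes were. With BMP-2 over none 4 were higher and 3 lower, against 29.9% and 30.9%. With both over none 2 were higher (*Loxl1* and *Plod1*) and 4 lower (*Lox*, *Loxl2*, *P4ha2* and *Serpinh1*), against 32.0% and 33.2%. Both over BMP-2 gave 3 higher and 4 lower, against 32.9% and 33.1%, and both over IL-17A gave 3 higher and 5 lower, against 30.3% and 32.2%. The median log2 ratio of the 10 was 0.13 for IL-17A over none, 0.02 for BMP-2 over none and -0.04 for both over none, with a median over all genes of 0.00 in each.

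For many of the genes the IL-17A ratio had another direction with BMP-2 than without. For 6 of the 10 genes it lay beyond counting error on opposite sides of 1 without and with BMP-2, where 17.1% of all genes tested and 18.7% of the deeper genes did so. *Lox* and *Plod3* were lower with IL-17A alone and higher when it was added to BMP-2. *Loxl2*, *Loxl3*, *P4ha2* and *Serpinh1* were higher with IL-17A alone and lower when it was added to BMP-2. The BMP-2 ratio lay on opposite sides without and with IL-17A for 4 of the 10, the lysyl oxidases *Lox*, *Loxl1*, *Loxl2* and *Loxl3*, against 18.3% of all genes and 19.7% of the deeper genes. For one cytokine or the other this held for 7 of the 10, against 25.6% and 27.3%. In spliced reads 4 of the 10 lay on opposite sides for IL-17A (*Lox*, *Loxl2*, *Plod3* and *P4ha1*), against 10.9% of all genes. For BMP-2, 4 did so (*Lox*, *Loxl2*, *Loxl3* and *P4ha1*), against 10.8%. The spliced shares were computed over all genes only and not among the deeper genes, to which all 10 belong. *Serpinh1*, at 0.974 (0.951 to 0.997) for both over BMP-2 in all exon reads, was at 1.00 (0.95 to 1.05) in spliced reads, and its interval also included 1 with library totals (0.976 to 1.02) and with deposited RPKM (0.974 to 1.02), which left 5 of the 10 on opposite sides for IL-17A. In exon reads that are not spliced 3 of the 10 did so for IL-17A (*Loxl3*, *P4ha2* and *Serpinh1*) and 2 for BMP-2 (*Loxl1* and *P4ha2*). Shares over all genes were not computed for that class of reads, nor with library totals or deposited RPKM, so these counts have no background. Each pair of ratios shares no library, but the same 4 libraries make up both pairs, so these counts are not independent of each other.

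**Figure D3:**
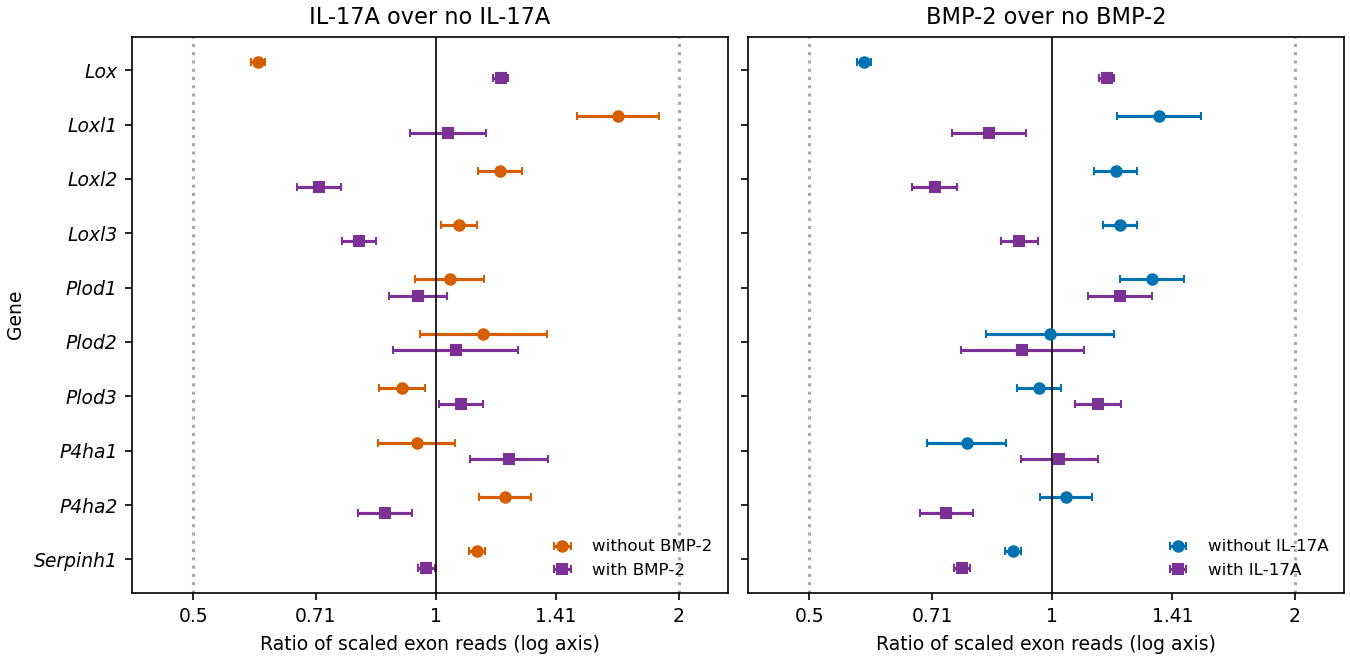
Ratios of scaled exon reads (log axis, bars are exact 95% intervals of counting error) for IL-17A over no IL-17A without and with BMP-2 (left) and for BMP-2 over no BMP-2 without and with IL-17A (right), with dotted lines at 2-fold. No point reaches 2-fold, and *Lox* lies at 0.602 without and 1.20 with BMP-2 for IL-17A.

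A test across all 4 libraries, in which each cytokine is an additive term, called none of the 10. In edgeR's quasi-likelihood test the lowest adjusted p among them was 0.923 for IL-17A (*Loxl1*, log2 fold change 0.40) and 0.987 for BMP-2. Over all 11352 genes 0.00881% passed for IL-17A and 0.00% for BMP-2, and 623 and 412 genes had an unadjusted p under 0.05. DESeq2 passed 49 and 9 genes, 0 of them among the 10. The 1 residual degree of freedom measures how far the cytokines depart from additivity, so a ratio that moves with the other cytokine, as that of *Lox* did, counts against a call.

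The summed RPKM of the 10 genes and that of the chains of their main substrate were ordered differently over the libraries. *Col1a1*, *Col1a2* and *Col3a1*, 3 of the 11 genes of fibrillar collagen chains, summed to 2172 RPKM in untreated cells, 2383 under IL-17A, 2018 under BMP-2 and 1604 under both. The summed RPKM of the 10 genes was 2682, 2515, 2178 and 2278 in the same order, which is 124% of these 3 chains in untreated cells, 106% under IL-17A, 108% under BMP-2 and 142% under both. The highest value, with both cytokines, goes with the lowest level of these chains. *Serpinh1* and *Lox* make up most of the sum of the 10 genes. *Serpinh1* gave 45.7 to 55.8% of it, at 1225, 1403, 1097 and 1094 RPKM. It was highest under IL-17A, as the sum of these chains was. It was nearly equal under BMP-2 and under both, where the chains summed to 2018 and 1604. *Lox* was highest in untreated cells, at 1030, 631, 602 and 743 RPKM. *Col1a1* was at 0.781 (0.769 to 0.793) of the untreated level with both cytokines, *Col1a2* at 0.665 (0.653 to 0.677) and *Col3a1* at 0.645 (0.633 to 0.657), while the basement membrane chain *Col4a1* was at 0.999 (0.968 to 1.03). Of 20 collagen chain genes, 1 was higher and 14 were lower with both than with none, with a median log2 ratio of -0.46, where over all genes tested 32.0% and 33.2% were and the median was 0.00.

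Of 26 other genes of collagen maturation 21 were measured, and with both over none 5 were higher and 13 lower (32.0% and 33.2% of all genes), with a median log2 ratio of -0.39. *P4hb*, which encodes protein disulfide isomerase, the β chain that joins the products of *P4ha1* and *P4ha2*, was at 509 RPKM in untreated cells, 507 under IL-17A, 480 under BMP-2 and 389 under both, well above either α chain gene. *Pcolce*, encoding the enhancer of procollagen C-proteinase, was at 273, 298, 273 and 177, and *Mia3*, needed for the export of procollagen from the endoplasmic reticulum, at 23.1, 27.3, 29.2 and 13.6, each lowest with both. *Fkbp10* and *Ppib*, encoding prolyl isomerases of the endoplasmic reticulum, had ratios of 0.765 and 0.816 for both over none, and *Crtap*, encoding a partner in prolyl 3-hydroxylation, had 0.997 (0.909 to 1.10).

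A few genes of this list were higher with both than with none. *Bmp1*, encoding the C-proteinase that also activates the LOX proenzyme, was at 75.6 RPKM in untreated cells, 113 under IL-17A, 81.4 under BMP-2 and 93.3 under both. *Adamts14*, encoding a procollagen N-proteinase, had 33, 63, 94 and 109 reads, and *Loxl4* 61, 119, 160 and 156. *Tmem38b*, encoding an ion channel of the endoplasmic reticulum, had 198, 122, 71 and 95 reads and was lower in each treated library.

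Partners and substrates of the lysyl oxidases were mostly lower. Of 9 such genes, 1 was higher and 7 lower with both over none (32.0% and 33.2% of all genes), and their median log2 ratio was -0.84. *Postn*, encoding periostin, had 115 RPKM in untreated cells, 57.8 under IL-17A, 68.6 under BMP-2 and 20.8 under both, a ratio of 0.176 (0.164 to 0.189) for both over none. *Eln*, encoding elastin, had 219, 71, 43 and 26 reads. *Fn1*, encoding fibronectin, was at 0.558 (0.545 to 0.571) and *Thbs1*, encoding thrombospondin-1, at 0.379 (0.372 to 0.386) of the untreated level with both. *Efemp2*, encoding fibulin-4, a protein that binds the LOX proenzyme, was the exception, at 665, 651, 735 and 767 RPKM.

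**Figure D4:**
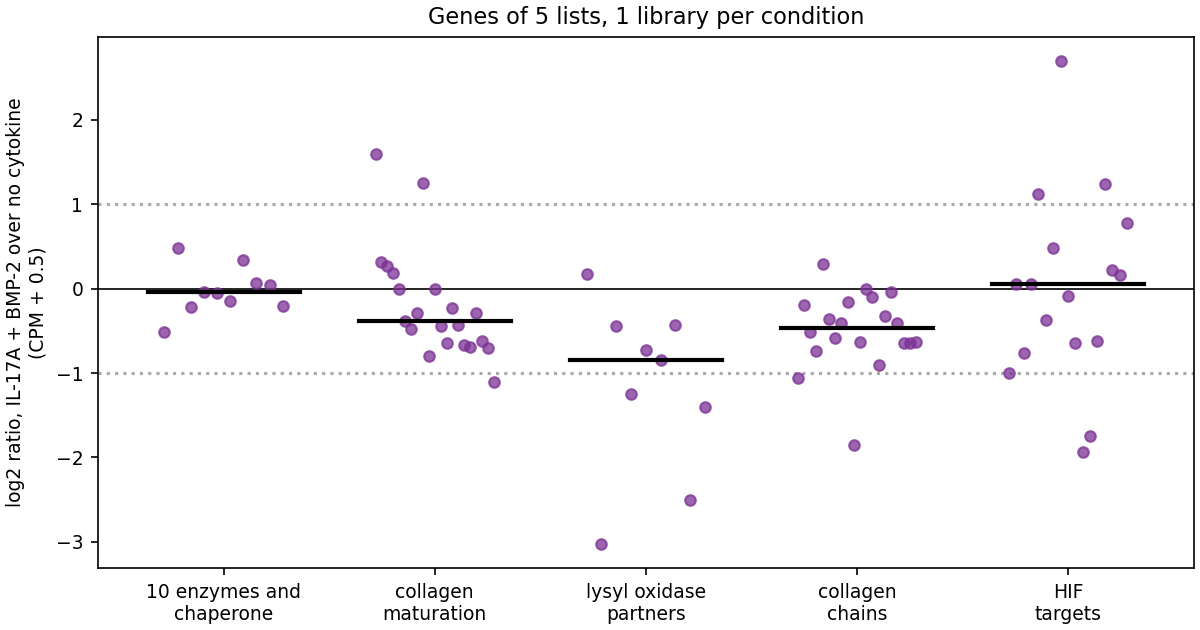
Log2 ratio of both cytokines over none, from TMM-scaled CPM plus 0.5, for each measured gene of 5 lists (points) with the list's median (bars) and dotted lines at 2-fold. The median is -0.04 for the 10 enzyme and chaperone genes, -0.39 for other collagen maturation genes, -0.84 for lysyl oxidase partners, -0.46 for collagen chains and 0.05 for HIF targets.

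Several of the 10 genes are known targets of HIF, and 20 other such targets were looked at, of which 17 were measured. With both over none 6 were higher and 8 lower (32.0% and 33.2% of all genes), and the median log2 ratio was 0.05. With IL-17A over none 8 were higher and 4 lower, where 29.8% and 29.3% of all genes were, and the median was 0.16. *Ldha*, encoding lactate dehydrogenase A, was at 612 RPKM in untreated cells, 715 under IL-17A, 754 under BMP-2 and 591 under both, and *Pgk1*, a further gene of glycolysis, at 133, 152, 136 and 160. *Adm*, encoding adrenomedullin, was lowest with both, at 0.497 (0.462 to 0.536) of the untreated level. *Pfkfb4* was at 2.38 (2.01 to 2.83), *Higd1a* at 1.40 (1.21 to 1.61) and *Kdm3a*, from 16 to 122 reads, at 7.29 (4.31 to 13.2) for both over none.

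Genes with the profile most like that of a member were sought among the 4423 genes that averaged at least 200 exon reads, by the distance between log2 profiles over the 4 libraries. For *Lox* they were *Ppapdc1b*, *Agpat6* and *Tmem159*, at distances of 0.122, 0.126 and 0.134. *Plod3* had *Mapk6*, *Abhd4* and the collagen chain gene *Col4a1*, at 0.0209, 0.0260 and 0.0390. *P4ha2* had *Trim28*, *Stard5* and *Gtpbp4*, and *Serpinh1* had *Rbm42*, *Phf23* and *Ssr3*, at 0.0378 to 0.0616.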

How the data were processed

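The RNA of the PαS cultures was read in 4 libraries, 1 per condition. The authors made and amplified full-length cDNA (SMART-Seq v4, no strand), read it on an Ion Proton instrument and processed the reads in CLC Genomics Workbench against mm10, the build named in the submitters' processing notes. The program's version and its mapping settings were not given in the sources used. The deposited files hold counts of total, unique and spliced exon reads and RPKM per gene. Sums of RPKM are of the deposited values.

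TMM scaling of exon reads was done in R 4.3.3 with edgeR 4.0.16, and ratios with exact conditional (Clopper–Pearson) 95% intervals were computed in Python 3.11.15 with scipy 1.17.1, over genes that averaged at least 10 exon reads. Medians of log2 ratios have a pseudocount of 0.5 on CPM. Each cytokine was tested with the other as an additive term by edgeR's quasi-likelihood test with Benjamini-Hochberg adjustment over all genes, and with DESeq2 1.42.0. Scripts were tested on simulated data. The alternatives were other scalings, unique or spliced reads, deposited RPKM, fold thresholds of 1.5 and 3 and filters of 1, 50 and 200 reads. Exon reads that are not spliced, and classes of *Loxl2* reads, were added after seeing the data.

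The members and gene lists were chosen with earlier results of these data known. The genes named are the 10 members, in the maturation list the 6 with the highest mean RPKM and the 4 with the largest absolute log2 ratio of both over none, in the collagen chain list the 4 highest, in the partner and HIF lists the 4 highest and the 2 with the largest ratio (largest ratios among genes that averaged 50 reads or more), the markers, and the 3 genes nearest in profile to *Lox*, *Plod3*, *P4ha2* and *Serpinh1*. *Gm27177*, *Htra2* and *Znhit1* were named because they overlap members and have exon reads. Gene positions are those of the deposited files.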

Additional observations from a re-analysis of the deposited data

Results flagged for a closer look

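For 7 of the 10 genes the effect of a cytokine ran in opposite directions, beyond counting error, in the 2 states of the other cytokine, as for 25.6% of all genes tested and 27.3% of those with at least 200 reads on average. With no repeated library the difference was not tested. The departure from additivity, the log2 ratio of both over BMP-2 minus that of IL-17A over none, was 1.00 for *Lox* (95% interval of counting error 0.96 to 1.04), -0.74 for *Loxl2* (-0.87 to -0.62), -0.41 for *Loxl3*, 0.24 for *Plod3*, -0.49 for *P4ha2*, -0.21 for *Serpinh1* and -0.70 for *Loxl1* (-0.92 to -0.47). In spliced reads it was 2.49 for *Lox* and -1.20 for *Loxl2*, and -0.17 (-0.36 to 0.005) for *P4ha2*. The opposite directions of *Lox*, *Loxl2* and *Plod3* held in spliced reads and not in exon reads that are not spliced. Those of *P4ha2*, *Serpinh1* and *Loxl1* held in exon reads that are not spliced and not in spliced reads. *Loxl3* had opposite directions for BMP-2 in spliced reads and for IL-17A in exon reads that are not spliced. For the same cytokine, no gene of the 10 had them in both classes of read. *P4ha1*, at 0.38 (0.16 to 0.60), departed beyond counting error without opposite directions in all exon reads.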

How the results depend on the processing

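Among the ratios of the 10 genes recomputed with other scalings, unique reads, spliced reads or deposited RPKM, 269 stayed within the counting interval, 29 left it and 2 changed direction. In spliced reads both over none became 1.27 for *Lox* and both over BMP-2 became 1.00 for *Serpinh1*. In exon reads that are not spliced, added after seeing the data, *Lox* turned to 0.827 for both over BMP-2 and 0.751 for both over IL-17A, *Loxl2* to 1.07 for both over none and 1.03 for both over IL-17A, and *P4ha1* to 0.982 for both over BMP-2. The cause was not tested. The 6 and 4 members with opposite directions for IL-17A and BMP-2 stand against 17.1% and 18.3% of all genes tested. They became 4 and 4 in spliced reads, against 10.9% and 10.8% of all genes, with no share computed for the deeper genes. With library totals or deposited RPKM they became 5 and 4, and in reads that are not spliced 3 and 2, where shares over all genes were not computed. The count of members 2-fold apart, 0 in each comparison, became 1 in spliced reads for IL-17A over none and for both over either cytokine, and at a threshold of 1.5 it was 2 for IL-17A over none and 1 for BMP-2 over none. The additive test called 1 gene for IL-17A, 3 with a filter of 200 reads, 0 with unique reads and 49 with DESeq2, and for BMP-2 0 and, with DESeq2, 9, with 0 members in any setting. In unique reads the summed RPKM of the lysyl oxidases was 1208 in untreated cells, 855 under IL-17A, 829 under BMP-2 and 928 under both. The members were 121, 103, 105 and 139% of the 3 chains in unique reads, in the same order, and 104, 92.3, 90.1 and 122% of all 11 fibrillar chains. No paired analysis was possible because each condition has 1 library and the labels carry no replicate numbers. Variation between cultures is not measured, and for *Plod2*, with 239 to 263 reads, depth limits what can be seen.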
